A study of Mus musculus with 6 samples.

Results

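The genes described here are 10 genes of antigen presentation by MHC class II, found as the lines of the deposited count table whose gene symbol equalled Cd74, H2-Aa, H2-Ab1, H2-Eb1, H2-DMa, H2-DMb1, H2-DMb2, H2-Oa, H2-Ob or Ciita. All 10 were present among the 48440 genes of the table. Class II molecules sit on dendritic cells, B cells and activated macrophages and show peptides from ingested proteins to CD4-positive T cells. An α and a β chain are assembled in the endoplasmic reticulum on the invariant chain, which blocks the groove and leads the complex to the endosome, where cathepsins cut it down to a short fragment. The chaperone DM then takes this fragment out and lets a peptide bind, DO holds DM back, and CIITA is the coactivator without which the promoters of these genes are largely silent.

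RNA was measured by sequencing in the murine tissues around BEC (BMSCs-engineered cartilage), that is, rabbit bone marrow stromal cells grown into cartilage on a PLGA scaffold and wrapped in an electrospun PCL/collagen membrane. The constructs lay under the skin of male BALB/c nude mice, obtained at 6 to 8 weeks of age, for 12 weeks, with 3 samples from the 0%-Axitinib group (membrane without drug) and 3 from the 3%-Axitinib group (membrane with axitinib, an inhibitor of VEGF receptors). The labels call the first 3 samples untreated, and here they stand for the 0%-Axitinib group because the protocol and design deposited with the series describe only membranes with 0% or 3% of the drug. Nude mice have no working thymus and few mature T cells, which limits them as a model of class II function, and each mouse carried a pair of constructs, so that samples of a group may share a mouse and p-values measure the spread between samples only. Reads counted on genes numbered 17761968, 16716411 and 18005908 in 0%-Axitinib replicates 1, 2 and 3, and 9225518, 11686084 and 18403795 in 3%-Axitinib replicates 1, 2 and 3. Levels are given in CPM, which are the usual counts per unit of library size, scaled by TMM, and 3 counts, the limit of detection used here, corresponded to between 0.157 and 0.330 CPM. Such limits, and the intervals given for counts, cover counting error only.

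The library of 0%-Axitinib replicate 3 stood apart from the others. The 13 marker genes of marrow neutrophil precursors summed to 40.5, 50.3 and 39792 CPM in 0%-Axitinib replicates 1, 2 and 3 and to 194, 131 and 57.9 CPM in 3%-Axitinib replicates 1, 2 and 3. S100a9 was the most abundant of them, and the granule enzyme genes Mpo and Elane reached 1244 and 664 CPM in replicate 3 but had 0 reads in 0%-Axitinib replicate 2. Erythroid markers, led by the globin gene Hbb-bs, summed to 448, 397 and 22717 CPM in the 0%-Axitinib samples and to 169, 382 and 537 CPM in the 3%-Axitinib samples over 12 of 13 listed genes. Both lists were thus far higher in this library than in the other 5, and class II comparisons are given with and without it. By the criterion explained below, 7 of the 10 marrow genes and 6 of the 6 erythroid genes tested were lower in the 3%-Axitinib group, against 1 of each without this library. Without it 3 marrow genes were higher by the criterion, and the median log2 fold change of the marrow list went from -6.89 to 0.61.

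Class II genes took up a smaller part of the transcriptome in every 3%-Axitinib sample than in any 0%-Axitinib sample. Together the 10 genes received 0.189%, 0.233% and 0.591% of the reads on genes in 0%-Axitinib replicates 1, 2 and 3, and 0.0524%, 0.0280% and 0.0614% in 3%-Axitinib replicates 1, 2 and 3. In bulk tissue, fewer cells of a type and less RNA per cell cannot be told apart. Of the 10 genes, 9 passed the filter on low counts and H2-Oa did not, and H2-Ob passed only through its 0%-Axitinib samples. The criterion of the study was a fold change of at least 1.5 and a p of at most 0.05. It was applied here to the unadjusted p of edgeR's quasi-likelihood test. By this criterion 8 of the 10 genes (H2-Ob among them) were lower in the 3%-Axitinib group and none was higher. Of the 15257 genes tested, 11.7% were lower and 9.54% were higher. A gene that passes the filter through 1 group alone had to differ, so H2-Ob gives no support to these counts. With all such genes set aside, 7 of 8 class II genes were lower (median log2 fold change -2.82), beside 11.0% of 15045 genes. Scaled to total counts alone, 2448 genes were lower and 989 were higher by this criterion, against 1785 and 1456 with TMM. The median log2 fold change was -2.88 over the 10 genes with H2-Oa set at its limit of detection, or -2.99 over the 9 fitted genes, and -0.03 over all genes tested. The 8 class II genes that passed the filter through both groups each had their 3 lowest values in the 3%-Axitinib group. This order held for 16.6% of all genes tested. H2-Ob, and H2-Oa, which was not tested, had the same order but give no support.

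By the quasi-likelihood test of edgeR with Benjamini-Hochberg adjustment, 0 class II genes and 0% of all genes tested were lower with an adjusted p of at most 0.05. Unadjusted, 8 class II genes (H2-Ob among them) and 1968 of all genes were lower at a p of at most 0.05. By DESeq2's Wald test, 7 class II genes and 1055 of all genes were lower at an adjusted p of at most 0.05. That test also gave 906 genes that were higher. Without 0%-Axitinib replicate 3, edgeR's adjusted calls of lower genes were 7 class II genes, beside 3.89% of the 15690 genes then tested. With H2-Ob and the like set aside, they were 6 beside 3.85% of 14968. In the fit without this library, 641 genes were higher at an adjusted p of at most 0.05. The criterion was met without this library by 8 class II genes, H2-Ob again among them, where 13.7% of genes were lower and 14.5% (2274 genes) were higher. The median was then -2.07, both over 9 fitted genes and over 10 with H2-Oa at its limit. The 8 class II genes other than H2-Ob and H2-Oa still lay lower in every 3%-Axitinib sample than in either 0%-Axitinib sample. Of all genes tested, 27.1% did so. H2-Ob and H2-Oa did so too, but give no support.

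**Figure D1:**
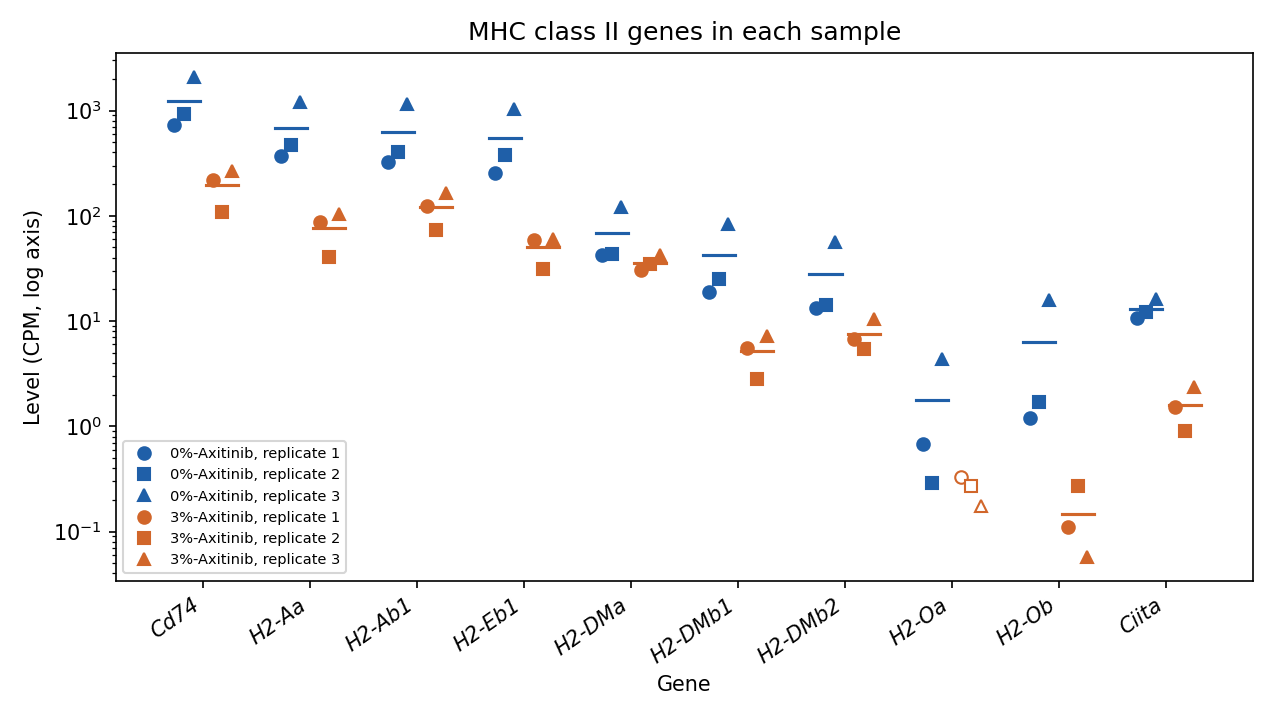
Level of each of the 10 class II genes in every sample, in CPM on a log axis, with 0%-Axitinib samples in blue, 3%-Axitinib samples in orange, 1 symbol for each replicate number and a bar at each group mean (n = 3). Open symbols stand at the limit of 3 counts where H2-Oa had 0 reads, where the symbol of 3%-Axitinib replicate 1 lies above that of 0%-Axitinib replicate 2. For each of the other 9 genes the orange values lie below the blue ones, most narrowly for H2-DMa.

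H2-Aa and H2-Ab1 encode the α and β chain of the I-A molecule. H2-Aa was at 366, 472 and 1217 CPM in 0%-Axitinib replicates 1, 2 and 3 and at 86.4, 40.5 and 104 CPM in 3%-Axitinib replicates 1, 2 and 3. H2-Ab1 was at 322, 402 and 1156 CPM in the 0%-Axitinib samples and at 123, 73.3 and 164 CPM in the 3%-Axitinib samples, in the same order. Replicate 3 was the highest of the 0%-Axitinib samples for both chains, replicate 2 was the lowest of the 3%-Axitinib samples, and the groups did not overlap. H2-Aa averaged 685 ± 463 CPM against 76.9 ± 32.6 CPM (SD, n = 3 each), which gives a log2 fold change of -3.16 ± 0.59 (SE, with 0.0965 as adjusted p by the quasi-likelihood test of edgeR and Benjamini-Hochberg). H2-Ab1 averaged 627 ± 459.8 CPM against 120.2 ± 45.6 CPM (SD, n = 3 each), which gives a smaller log2 fold change of -2.38 ± 0.58 (SE, with 0.0989 as adjusted p by the quasi-likelihood test of edgeR and Benjamini-Hochberg). Without 0%-Axitinib replicate 3 the log2 fold changes were -2.45 for H2-Aa and -1.59 for H2-Ab1, with 0.0379 and 0.0476 as adjusted p by the quasi-likelihood test of edgeR and Benjamini-Hochberg.

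The chains of the other class II molecule, I-E, are encoded by H2-Eb1 (β) and, in strains that have it, H2-Ea (α). The deposited table names the α gene H2-Ea-ps, because the reference strain carries a broken copy, whereas BALB/c mice make an I-E molecule. It lies outside the 10 genes and is given here as the partner of H2-Eb1. H2-Eb1 was at 256, 375 and 1029 CPM in 0%-Axitinib replicates 1, 2 and 3 and at 58.8, 31.4 and 60.0 CPM in 3%-Axitinib replicates 1, 2 and 3, while H2-Ea-ps measured 199, 262 and 460.0 CPM, then 33.1, 15.1 and 39.9 CPM. Neither gene overlapped between the groups, and for both the lowest value was in 3%-Axitinib replicate 2. H2-Eb1 averaged 553 ± 416 CPM against 50.1 ± 16.2 CPM (SD, n = 3 each), which gives a log2 fold change of -3.46 ± 0.60 (SE, with 0.0965 as adjusted p by the quasi-likelihood test of edgeR and Benjamini-Hochberg). Without 0%-Axitinib replicate 3 it was -2.66 ± 0.34 (SE, with 0.0379 as adjusted p by the quasi-likelihood test of edgeR and Benjamini-Hochberg). H2-Ea-ps had a log2 fold change of -3.38 ± 0.49 (SE), and -2.97 without that library. The second β gene, H2-Eb2, had 2, 1 and 8 reads in the 0%-Axitinib samples and 0 in each 3%-Axitinib sample, and was not tested. The reads were mapped to the genome of another strain, whose class II alleles differ from those of BALB/c mice, so the level of one chain against another depends on how well its alleles map. This holds alike for both groups.

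Cd74 encodes the invariant chain and sits at 60803848 to 60812652 of chromosome 18 (GRCm38). Its level was 722, 923 and 2084 CPM in 0%-Axitinib replicates 1, 2 and 3 and 219, 108 and 264 CPM in 3%-Axitinib replicates 1, 2 and 3. Replicates 1 and 2 of the 0%-Axitinib group lay nearer to each other than to replicate 3, and even the lower of them exceeded all 3%-Axitinib samples. The log2 fold change was -2.66 ± 0.54 (SE, with 0.0965 as adjusted p by the quasi-likelihood test of edgeR and Benjamini-Hochberg) and without 0%-Axitinib replicate 3 -2.06 ± 0.39 (SE, with 0.0419 as adjusted p by the quasi-likelihood test of edgeR and Benjamini-Hochberg). Per kb of exon, Cd74 was the most abundant of the 10 genes in all 6 samples. Its level over the sum of the 4 chain genes H2-Aa, H2-Ab1, H2-Ea-ps and H2-Eb1, all per kb, was 0.787, 0.757 and 0.712 in the 0%-Axitinib samples and 0.983, 0.919 and 0.9805 in the 3%-Axitinib samples. Each 3%-Axitinib sample thus held more Cd74 RNA for the summed RNA of these chains, a description with no test. This did not hold for each chain alone, since H2-Ab1 had a smaller log2 fold change (-2.38) than Cd74.

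DM is made of an α chain, encoded by H2-DMa, and a β chain, for which the mouse has 2 neighbouring genes, H2-DMb1 and H2-DMb2. The 3 genes had unlike log2 fold changes, whose differences were not tested. H2-DMa was at 42.4, 43.2 and 120.5 CPM in 0%-Axitinib replicates 1, 2 and 3 and at 30.2, 35.1 and 42.2 CPM in 3%-Axitinib replicates 1, 2 and 3. The highest 3%-Axitinib sample lay just below 0%-Axitinib replicates 1 and 2, and the 0%-Axitinib group mean was raised mostly by its replicate 3. H2-DMa had a log2 fold change of -0.94 ± 0.44 (SE, with 0.243 as adjusted p by the quasi-likelihood test of edgeR and Benjamini-Hochberg), which did not meet the criterion. Without 0%-Axitinib replicate 3 it was -0.26 ± 0.18 (SE). The criterion was met, with log2 fold changes between -1.19 and -0.94, with total counts, without a filter, with DESeq2's Wald test, and without 0%-Axitinib replicate 1 or 2. In GENCODE, 10.4% of the exon bases of H2-DMa also belong to Brd2 on the opposite strand, and whether counting used the strand is not given in the sources used here. Brd2, named after its values were seen, was at 266, 277 and 226 CPM in the 0%-Axitinib samples, against 258, 231 and 262 CPM in the 3%-Axitinib samples, with overlapping groups, and its part in the result was not tested.

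H2-DMb1 was at 18.9, 25.0 and 84.2 CPM in 0%-Axitinib replicates 1, 2 and 3 and at 5.50, 2.82 and 7.24 CPM in 3%-Axitinib replicates 1, 2 and 3. H2-DMb2 was at 13.2, 14.2 and 56.2 CPM in the 0%-Axitinib samples, against 6.82, 5.47 and 10.5 CPM in the 3%-Axitinib samples. Both genes were low in each 3%-Axitinib sample, H2-DMb1 by the wider gap. The log2 fold change was for H2-DMb1 -3.03 ± 0.67 (SE, with 0.0972 as adjusted p by the quasi-likelihood test of edgeR and Benjamini-Hochberg), and -2.07 without 0%-Axitinib replicate 3. For H2-DMb2 it was -1.87 ± 0.63 (SE, with 0.149 as adjusted p by the quasi-likelihood test of edgeR and Benjamini-Hochberg), and -0.85 without 0%-Axitinib replicate 3. H2-DMb2 no longer met the criterion without 3%-Axitinib replicate 1 (-1.78) or replicate 2 (-1.66). The pair shares sequence: 22.7% of the 50-base stretches in H2-DMb1 transcripts occur in H2-DMb2 and 21.2% of those in H2-DMb2 occur in H2-DMb1, so some reads may have been given to neither gene and the split between them is uncertain.

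The proportions inside the DM family differed between the groups in each sample. H2-DMb1 over H2-DMa, both per kb of exon, was 0.917, 1.19 and 1.43 in 0%-Axitinib replicates 1, 2 and 3 and 0.373, 0.165 and 0.352 in 3%-Axitinib replicates 1, 2 and 3. With both β genes added together, the ratio was 1.53, 1.84 and 2.36 against 0.818, 0.473 and 0.843. Every 3%-Axitinib sample thus had less β-chain RNA per α-chain RNA than every 0%-Axitinib sample, replicate 3 of the latter included. H2-DMb1 exceeded H2-DMb2 per kb in all 3 samples of the 0%-Axitinib group and fell short of it in all 3 samples of the 3%-Axitinib group.

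DO, the partner that restrains DM and is found mostly in B cells, is encoded by H2-Oa (α) and H2-Ob (β), the least abundant of the 10 genes by counts. H2-Oa had 13, 5 and 80 reads in 0%-Axitinib replicates 1, 2 and 3 and 0, 0 and 0 reads in 3%-Axitinib replicates 1, 2 and 3. Against the limit of 3 counts per library, H2-Oa was at least 6.84-fold lower in the 3%-Axitinib group, or at least 1.87-fold lower without 0%-Axitinib replicate 3. Pooled over the libraries, the lower end of the 95% exact counting interval was 17.8-fold for H2-Oa, or 4.52-fold without that library. H2-Ob had 23, 29 and 294 reads in the 0%-Axitinib samples and 1, 3 and 1 reads in the 3%-Axitinib samples. Most of the DO reads of the 0%-Axitinib group came from replicate 3, yet both genes were above the limit of detection in replicates 1 and 2 as well. Pooled in the same way, H2-Ob was 47.2-fold lower in the 3%-Axitinib group (interval 20.04 to 146), and 10.7-fold lower (4.30 to 34.3) without 0%-Axitinib replicate 3. The fitted log2 fold change of H2-Ob was -5.42 ± 1.34 (SE) and -3.31 without that library, and with 1 to 3 reads in each 3%-Axitinib sample it depends on the prior count of the fit. In GENCODE, 22.8% of the exon bases of H2-Oa overlap the antisense transcript BC051537, which had 0, 0 and 3 reads in the 0%-Axitinib samples and 0 in the 3%-Axitinib samples.

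H2-Ob made up 3.60% of the reads on H2-Ob, H2-DMb1 and H2-DMb2 together in 0%-Axitinib replicate 1 (95% Clopper-Pearson interval 2.30% to 5.35%), 4.14% in replicate 2 (2.79% to 5.89%) and 10.2% in replicate 3 (9.13% to 11.4%). In 3%-Axitinib replicates 1, 2 and 3 the share was 0.885% (0.0224% to 4.83%), 3.19% (0.663% to 9.04%) and 0.326% (0.00825% to 1.80%). Every 3%-Axitinib share was thus lower than every 0%-Axitinib share. The intervals of 3%-Axitinib replicates 1 and 2 overlapped those of 0%-Axitinib replicates 1 and 2, and the interval of 3%-Axitinib replicate 3 lay below those of all 3 samples of the 0%-Axitinib group. Set against the α gene H2-DMa instead, H2-Ob was at 0.0283, 0.0392 and 0.133 in 0%-Axitinib replicates 1, 2 and 3 and at 0.00364, 0.00779 and 0.00137 in 3%-Axitinib replicates 1, 2 and 3, as a ratio of CPM, without overlap. Since H2-Ob passed the filter only through its 0%-Axitinib samples, the order of these shares and ratios gives no support.

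Ciita, on chromosome 16 from 10480059 to 10528418, had the most even levels within the 0%-Axitinib group. It was at 10.6, 12.2 and 16.1 CPM in 0%-Axitinib replicates 1, 2 and 3 and at 1.54, 0.911 and 2.37 CPM in 3%-Axitinib replicates 1, 2 and 3. The library that stood highest for the other genes, 0%-Axitinib replicate 3, exceeded replicates 1 and 2 by less here than for any other class II gene. The group means were 13.0 ± 2.81 CPM and 1.61 ± 0.734 CPM (SD, n = 3 each), which gives a log2 fold change of -2.99 ± 0.43 (SE, with 0.0965 as adjusted p by the quasi-likelihood test of edgeR and Benjamini-Hochberg). Without 0%-Axitinib replicate 3 it was -2.80 ± 0.42 (SE, with 0.0379 as adjusted p by the quasi-likelihood test of edgeR and Benjamini-Hochberg), and over all 6 samples left out in turn it lay between -3.40 and -2.70. Dexi, on the opposite strand, shares 3.45% of the exon bases of Ciita and had 21.4, 16.0 and 25.9 CPM in the 0%-Axitinib samples, against 22.5, 24.4 and 25.0 CPM in the 3%-Axitinib samples.

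Per kb of exon, the levels of the 10 genes spanned 3 tiers in the 0%-Axitinib group. Cd74 stood at 740.4 ± 438 CPM per kb (SD, n = 3), followed by H2-Eb1 at 285 ± 214, H2-Ab1 at 244 ± 179 and H2-Aa at 180.4 ± 122. The DM genes came next, with means of 25.4 for H2-DMb1, 19.9 for H2-DMa and 16.0 for H2-DMb2. Ciita, H2-Oa and H2-Ob were lowest, at 1.36, 1.26 and 1.17 CPM per kb. The order of the last 3 varied from sample to sample.

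In the 3%-Axitinib group the order changed inside the tiers. Cd74 was at 117 ± 48.0 CPM per kb (SD, n = 3), H2-Ab1 at 46.8 ± 17.7, H2-Eb1 at 25.8 ± 8.32 and H2-Aa at 20.2 ± 8.58. H2-DMa was at 10.4 ± 1.74, H2-DMb2 at 4.34 ± 1.48 and H2-DMb1 at 3.09 ± 1.32 CPM per kb. H2-Eb1 led H2-Ab1 in all 3 samples of the 0%-Axitinib group, and H2-Ab1 led H2-Eb1 in all 3 samples of the 3%-Axitinib group. H2-Eb1 over H2-Ab1, both per kb, was 1.05, 1.23 and 1.18 in 0%-Axitinib replicates 1, 2 and 3 and 0.631, 0.567 and 0.483 in 3%-Axitinib replicates 1, 2 and 3. The I-A chains also parted, with H2-Aa over H2-Ab1 at 0.768, 0.795 and 0.712 against 0.475, 0.374 and 0.426. By contrast, the I-E ratio of H2-Ea-ps over H2-Eb1 overlapped between the groups, at 1.46, 1.31 and 0.839 against 1.06, 0.903 and 1.247. Ratios between genes of 1 sample do not depend on the scaling of the libraries, and they were not tested.

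Ptprc, the leukocyte common antigen, was at 215, 351 and 363 CPM in 0%-Axitinib replicates 1, 2 and 3 and at 79.7, 81.7 and 98.1 CPM in 3%-Axitinib replicates 1, 2 and 3, and class II genes differed in how they stood to it. H2-Eb1 over Ptprc, as a ratio of CPM, was 1.19, 1.07 and 2.83 in the 0%-Axitinib samples and 0.738, 0.385 and 0.612 in the 3%-Axitinib samples. Ciita over Ptprc was 0.0492, 0.0349 and 0.0443 against 0.0193, 0.0111 and 0.0242. These ratios, and that of H2-Aa, were lower throughout the 3%-Axitinib group, without overlap. The share of all genes with this order in their ratio to Ptprc is not given here. H2-Ob had the same order, but it passed the filter only through its 0%-Axitinib samples and gives no support. Cd74, H2-Ab1, H2-DMb1 and H2-DMb2 overlapped between the groups in their ratio to Ptprc, H2-Ab1 with 1.499, 1.15 and 3.18 against 1.54, 0.896 and 1.67. H2-DMa over Ptprc was higher in the 3%-Axitinib samples, at 0.379, 0.429 and 0.429, than in the 0%-Axitinib samples, at 0.197, 0.123 and 0.332.

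All members but Cd74 and Ciita lie in 1 stretch of chromosome 17 of GRCm38, in the class II part of the H2 complex. From the proximal end these are H2-Oa (34092340 to 34095234), H2-DMa (34119541 to 34139101), H2-DMb2 (34143307 to 34151555), H2-DMb1 (34153072 to 34160230) and H2-Ob (34238903 to 34254414). H2-Ab1 (34257689 to 34269419), H2-Aa (34282744 to 34287823) and H2-Eb1 (34305867 to 34316674) follow. All are annotated as coding for protein. Neighbours in this stretch had unlike log2 fold changes: H2-DMa at -0.94 lies beside H2-DMb2 at -1.87 and H2-DMb1 at -3.03. These differences between genes were not tested.

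**Figure D2:**
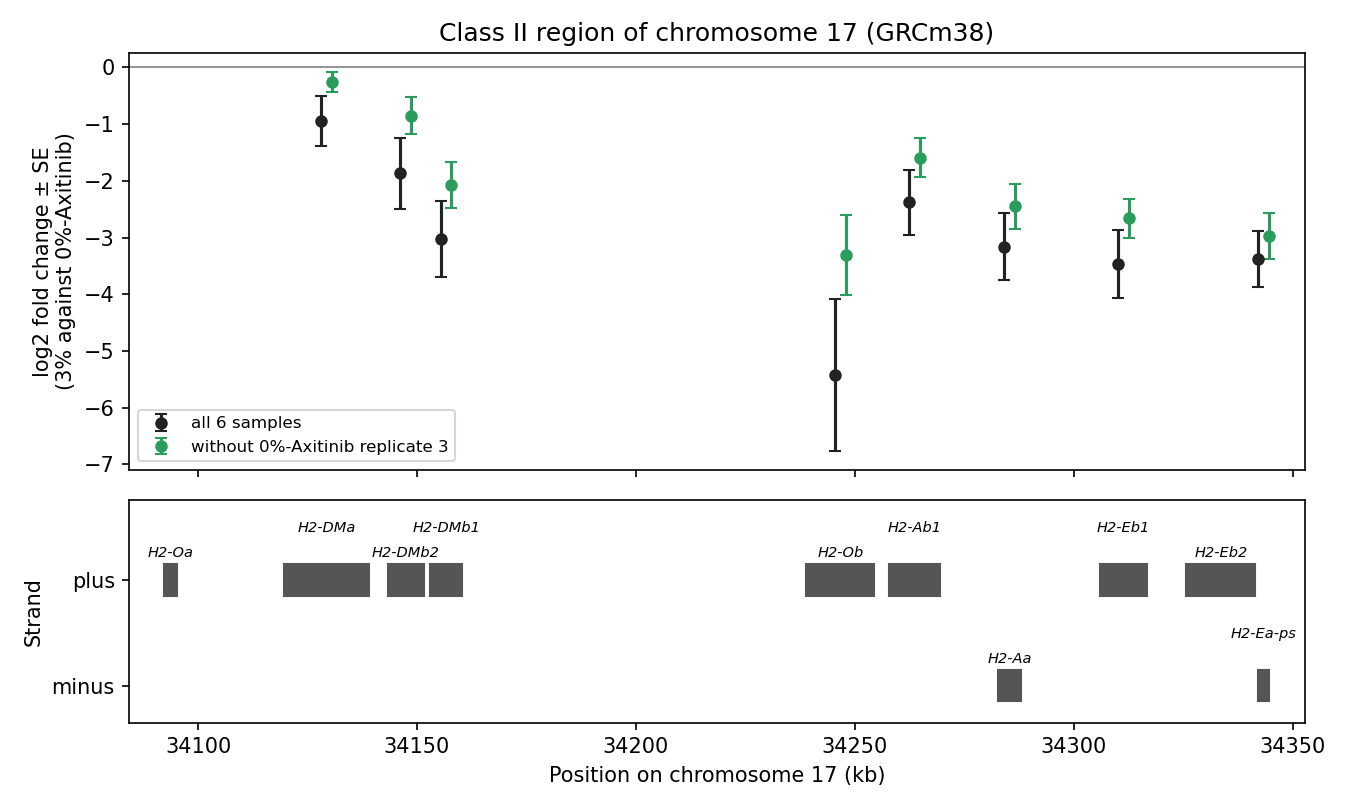
Log2 fold change of the fitted class II genes (3%-Axitinib against 0%-Axitinib, with its standard error) by position in kb on chromosome 17, with gene bodies drawn by strand below. Black points use all 6 samples and green points leave out 0%-Axitinib replicate 3; every point lies below 0, with H2-DMa nearest to it, and H2-Oa and H2-Eb2, which were not tested, have no point.

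Class II promoters are known for a shared block of short elements, among them an X box, bound by RFX, and a Y box, bound by NF-Y, on which CIITA docks. Since most of the members were lower together, the promoter windows of RefSeq (GRCm38.p6 table, 250 bases before to 50 after each start) were searched on both strands for the Y box letters TGATTGG and for the letters GNAAC, found in X boxes, followed after 10 to 40 bases by ATTGG, the last letters of the Y box. Of all 32851 windows, 7.82% held TGATTGG, 84.8% held GNAAC and 4.87% held the spaced pair. The table holds windows for 7 members (H2-Oa, H2-DMa, H2-DMb1, H2-DMb2, H2-Ob, H2-Aa and H2-Eb1) and for H2-Eb2. The spaced pair was found in the windows of H2-Oa, H2-DMb1, H2-Ob, H2-Aa, H2-Eb1 and H2-Eb2, with 25 to 28 bases between its parts. H2-DMb2 held TGATTGG without the spaced pair, and neither of the 2 windows of H2-DMa held TGATTGG or the pair. A match is a description of letters, and a missing match says only that these letters are not in the window. Stretches of 80 bases around the matches are shown on the strand of each gene, because they set chain genes beside the DM and DO genes; capitals mark GNAAC and ATTGG of the pair, or ATTGG alone in H2-DMb2.
H2-Eb1 (chr17:34305748-34305827, plus strand): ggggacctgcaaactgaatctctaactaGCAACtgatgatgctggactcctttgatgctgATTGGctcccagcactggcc
H2-Aa (chr17:34287852-34287931, minus strand): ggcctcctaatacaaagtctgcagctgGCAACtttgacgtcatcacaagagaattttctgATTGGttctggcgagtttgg
H2-DMb1 (chr17:34153070-34153149, plus strand): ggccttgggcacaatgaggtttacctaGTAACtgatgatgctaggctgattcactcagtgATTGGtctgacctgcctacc
H2-DMb2 (chr17:34145099-34145178, plus strand): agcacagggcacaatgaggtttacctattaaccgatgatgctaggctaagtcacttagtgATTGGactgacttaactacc
H2-Oa (chr17:34092276-34092355, plus strand): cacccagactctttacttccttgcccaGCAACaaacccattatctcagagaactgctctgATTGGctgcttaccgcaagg
H2-Ob (chr17:34238788-34238867, plus strand): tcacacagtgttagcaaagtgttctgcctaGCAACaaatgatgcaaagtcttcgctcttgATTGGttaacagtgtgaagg

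H2-DMb1 and H2-DMb2 have closely similar stretches, and in the H2-DMb2 stretch the letters GNAAC are not found at the place where H2-DMb1 has them. Their log2 fold changes (-3.03 and -1.87) were not tested against each other. Cd74, Ciita, H2-Ab1 and H2-Ea-ps were not searched.

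Other genes of the pathway met the criterion in some lists and not in others, and differences between lists were not tested. With 3 samples a group, a gene that misses the criterion is not shown to be unchanged. Among 9 genes of peptide processing in the endosome, which include the cathepsin inhibitor gene Cst3, none met the criterion in either direction. Only Cst3 did not overlap between the groups (0.80 ± 0.39, SE), being higher in the 3%-Axitinib samples. Their median log2 fold change was 0.22 (-0.03 without 0%-Axitinib replicate 3). Their most abundant gene, the protease gene Ctsb, was at 8004, 13176 and 3629.6 CPM in 0%-Axitinib replicates 1, 2 and 3 and at 5918, 6305 and 9352 CPM in 3%-Axitinib replicates 1, 2 and 3, with overlapping groups. Among the 7 factors that bind class II promoters, Nfya and Creb1 were lower and Nfyc was higher by the criterion, with a median of -0.22 over the list (0.31 without 0%-Axitinib replicate 3). Nfya, the most abundant of them and a subunit of NF-Y, was at 77.0, 102 and 82.7 CPM against 45.2, 36.5 and 49.2 CPM, which is 1.99-fold lower. Creb1 had -1.04 ± 0.27 (SE) and Nfyc, another subunit of NF-Y, 0.62 ± 0.18 (SE). March1 and March8, ligases that turn over class II molecules, were not analysed here, because names of this kind stand as dates in the table.

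Interferon γ is the classical inducer of Ciita. Its own gene, Ifng, had too few reads to be tested, and 12 of the 13 genes on the list of its signalling and of Ciita induction were tested, of which 5 were lower by the criterion and none was higher (median -0.48, or -0.36 without 0%-Axitinib replicate 3). Irf1, a transcription factor, was at 55.3, 51.1 and 164 CPM in 0%-Axitinib replicates 1, 2 and 3 and at 32.8, 33.1 and 35.1 CPM in 3%-Axitinib replicates 1, 2 and 3. It was much higher in 0%-Axitinib replicate 3 than elsewhere, and its log2 fold change of -1.42 became -0.66 without it. Also lower were the receptor gene Ifngr2 (-0.82 ± 0.19, SE), Irf8 (-0.73 ± 0.28, SE), a factor of myeloid and dendritic cells, and Prdm1 (-1.70 ± 0.53, SE), a repressor of Ciita in plasma cells. Irf8, whose groups overlapped, no longer met the criterion without 0%-Axitinib replicate 3 (-0.61). Spi1, the most abundant gene of the list, had -0.19 ± 0.29 (SE) with overlapping groups.

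Of 8 genes of costimulation and of class II binding, 1 was lower by the criterion and none was higher, with a median of -0.50 (-0.20 without 0%-Axitinib replicate 3). This was Cd4, whose product binds class II on T cells and which some myeloid cells also make, at 6.06, 8.63 and 24.2 CPM in the 0%-Axitinib samples, against 0.660, 0.820 and 1.16 CPM in the 3%-Axitinib samples. Every 3%-Axitinib sample was low, and the log2 fold change was -3.85 ± 0.64 (SE), or -3.02 without 0%-Axitinib replicate 3. Cd274, the most abundant of the list, overlapped between the groups at -0.48 ± 0.36 (SE).

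Class I presentation, which most nucleated cells carry out, served as the nearest neighbouring pathway. Of 21 genes, 7 were lower and none was higher by the criterion, with a median log2 fold change of -0.75 (-0.49 without 0%-Axitinib replicate 3). The most abundant, the class I chain gene H2-D1, was at 2189, 3129 and 3271 CPM in 0%-Axitinib replicates 1, 2 and 3 and at 1550.5, 1443 and 2116 CPM in 3%-Axitinib replicates 1, 2 and 3, and its log2 fold change of -0.75 ± 0.34 (SE) did not meet the criterion. Those that met it were the class I chain genes H2-Q4 (-1.30), H2-Q6 (-2.33) and H2-Q7 (-2.55), whose sequences are much alike, Nlrc5 (-1.87), the relative of Ciita that drives class I genes, the peptide transporter gene Tap1 (-1.64), the proteasome gene Psmb9 (-1.61) and the trimming peptidase gene Erap1 (-1.01). Without 0%-Axitinib replicate 3, Psmb9 was at -0.39 and no longer met the criterion, while H2-Q4 (-0.74), H2-Q6 (-1.59), H2-Q7 (-1.87), Nlrc5 (-1.44), Tap1 (-0.80) and Erap1 (-1.13) still did and B2m (-0.60) came to meet it. Nlrc5 was at 26.4, 38.4 and 66.5 CPM against 11.7, 15.7 and 8.68 CPM, with groups that did not overlap. The difference between the class I and class II lists was not tested.

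Markers of the cells that carry class II molecules were read beside these results. The 12 dendritic cell genes, with Itgax the most abundant, summed to 1683, 2430.3 and 621 CPM in 0%-Axitinib replicates 1, 2 and 3 and to 641, 376 and 1064 CPM in 3%-Axitinib replicates 1, 2 and 3. This sum overlapped between the groups and rested mostly on Itgax, at 1392, 2253 and 316 CPM against 404, 301 and 815 CPM. Itgax was lowest among the 0%-Axitinib samples in replicate 3, where Flt3, Xcr1, Clec9a, Batf3, Mgl2, Ccr7 and Siglech of the same list were highest, as the class II genes were. Xcr1 passed the filter only through the 0%-Axitinib samples, and of the other 11 genes 7 were lower by the criterion and none was higher, with a median log2 fold change of -2.26 (-1.85 without 0%-Axitinib replicate 3). Flt3, a growth factor receptor of dendritic cells, was at 1.98, 2.92 and 7.82 CPM against 0.660, 0.729 and 0.521 CPM, and the factor gene Zbtb46 was at 16.7, 12.4 and 13.1 CPM against 6.71, 5.01 and 7.12 CPM. Both genes were lower throughout the 3%-Axitinib group, without overlap, as was Cd209a, whose log2 fold change of -3.16 was the largest of the list.

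The 12 B cell genes, led by Blnk, summed to 130.4, 201 and 412 CPM in the 0%-Axitinib samples and to 52.5, 59.5 and 92.1 CPM in the 3%-Axitinib samples, without overlap. In every sample but 0%-Axitinib replicate 3, most of this sum was Blnk. Its own groups overlapped, at 88.6, 130 and 51.6 CPM against 33.4, 43.6 and 70.1 CPM, and it did not meet the criterion with all 6 samples. Of these genes 7 were tested, but Ms4a1, Blk and Fcrla passed the filter only through the 0%-Axitinib samples, and of the other 4, 3 were lower by the criterion (median -2.79, or -1.46 without 0%-Axitinib replicate 3). Cd79a, a chain of the B cell receptor, was at 1.67, 2.33 and 101 CPM in 0%-Axitinib replicates 1, 2 and 3 and at 0.660, 0.547 and 0.521 CPM in 3%-Axitinib replicates 1, 2 and 3. Ms4a1 was at 1.72, 1.05 and 14.1 CPM against 0, 0.0911 and 0 CPM. In the 3%-Axitinib samples the defining marker Ms4a1 was thus at or near 0, with at most 1 read, and 3, 3 and 7 of the 12 genes had 0 reads in replicates 1, 2 and 3. Of the 6 plasma cell genes, with Xbp1 the most abundant, Mzb1 passed the filter only through the 0%-Axitinib samples and 1 of the other 5 was lower by the criterion, namely Jchain, which was at 20.3, 95.6 and 190.1 CPM against 0.440, 0.0911 and 0.637 CPM. Without 0%-Axitinib replicate 3, Jchain also passed only through the 0%-Axitinib samples, and 0 of the other 4 genes met the criterion (median -0.39). The plasma cell list summed to 365, 600.1 and 473 CPM against 401, 370.3 and 362 CPM. The 9 genes of B cell progenitors, mostly Il7r, summed to 214, 386 and 116 CPM against 153, 151 and 159 CPM, 5 of them had 0 reads in every library but 0%-Axitinib replicate 3, and neither of the 2 tested met the criterion. Il7r (-0.78) came to meet it, as lower, without 0%-Axitinib replicate 3 (-1.25). The 9 T cell genes, led by Cd3d, summed to 5.38, 19.5 and 208 CPM against 2.86, 4.01 and 1.97 CPM, and 2 of 3 were lower by the criterion, Cd247, which passed the filter only through the 0%-Axitinib samples, being set aside (median -3.80). It was 1 of 3 (median -1.25) without 0%-Axitinib replicate 3.

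Macrophage markers did not follow class II genes. Of 13 such genes, with Lyz2 the most abundant, none met the criterion in either direction with all 6 samples, and 1, Adgre1, was lower without 0%-Axitinib replicate 3. The list summed to 12084, 12543 and 9051 CPM in 0%-Axitinib replicates 1, 2 and 3 and to 9016, 11200.5 and 17470.5 CPM in 3%-Axitinib replicates 1, 2 and 3, with overlapping groups. Its median log2 fold change was -0.04, and -0.08 without 0%-Axitinib replicate 3. Cd74 over Csf1r, the receptor gene of macrophage growth, was 0.946, 1.32 and 4.53 in the 0%-Axitinib samples and 0.536, 0.194 and 0.370 in the 3%-Axitinib samples, as a ratio of CPM. Each 3%-Axitinib sample thus held less invariant chain RNA for its Csf1r RNA than any 0%-Axitinib sample. Over Adgre1 the gap was narrow, with Cd74 at 3.14, 3.40 and 28.5 against 3.05, 1.12 and 2.08. Over Cd68 it was at 0.708, 0.598 and 5.47 against 0.251, 0.108 and 0.175. None of these ratios was tested.

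Among lists of other cells, 9 of 10 endothelial genes were lower by the criterion, Eng, the most abundant, being the exception at -0.01, and the sum of the list was 958, 642 and 996 CPM against 301, 444 and 458 CPM. Without 0%-Axitinib replicate 3 it was 7 of 10, because Emcn (-0.59) and Egfl7 (-0.64) no longer met the criterion. The 7 genes of leukocytes in general, led by Laptm5, summed to 2820.5, 4174 and 4873 CPM against 1874, 1994 and 2910.2 CPM, and 2 of them were lower by the criterion. Skeletal muscle genes, led by Acta1, were high in 3%-Axitinib replicates 1 and 3 only, with sums of 13616, 19.0 and 7559 CPM in replicates 1, 2 and 3, against 135, 6.71 and 13.5 CPM in the 0%-Axitinib samples, and 9 of the 11 tested were higher by the criterion (7 without 0%-Axitinib replicate 3). The class II sum was lowest in 3%-Axitinib replicate 2, the sample of that group with little muscle RNA. Unmapped reads made up 5.47%, 3.84% and 14.9% of the reads in 0%-Axitinib replicates 1, 2 and 3, and 48.4%, 29.2% and 16.8% in 3%-Axitinib replicates 1, 2 and 3. The part of these cell types, of the marrow transcripts, of the unmapped reads and of any rabbit RNA in the class II result was not tested.

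**Figure D3:**
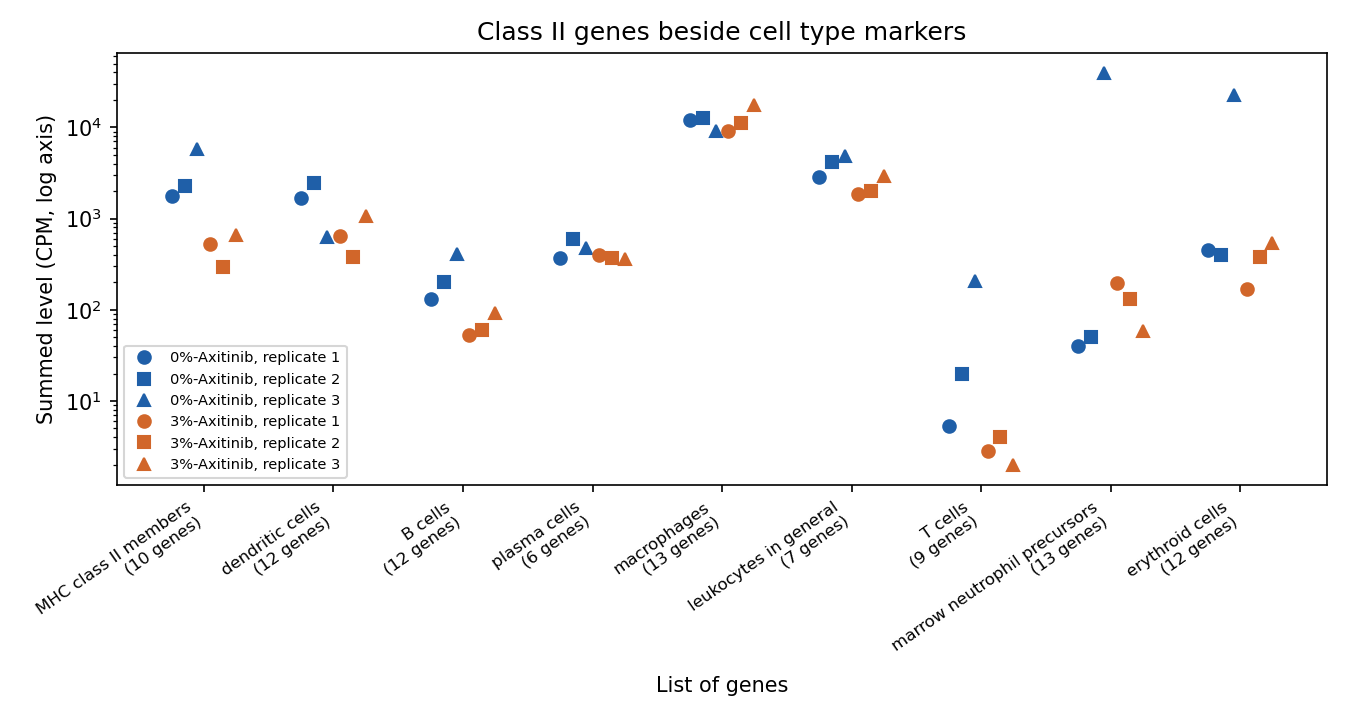
Summed level of the 10 class II genes and of 8 lists of marker genes in every sample, in CPM on a log axis, with 0%-Axitinib samples in blue, 3%-Axitinib samples in orange and 1 symbol for each replicate number. The class II, B cell and T cell sums separate the groups, and the macrophage sum does not. The marrow neutrophil and erythroid sums are high in 0%-Axitinib replicate 3 alone.

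Among 14334 other tested genes with a mean of at least 1 CPM, those most like the mean log2 CPM of the 9 fitted class II genes over the 6 samples were Cd247, Lmtk2, Ighm, Coa5, Gm11868, Dnase1l3, Kif24, Stk4, Arl6ip1 and Wdr82, with Pearson's r between 0.992 and 0.999. With 6 samples in 2 groups such values describe a shape and carry no test. Ighm, the heavy chain of IgM, was at 129, 202 and 764 CPM in 0%-Axitinib replicates 1, 2 and 3 and at 37.0, 25.4 and 51.4 CPM in 3%-Axitinib replicates 1, 2 and 3. Dnase1l3, a nuclease gene known from dendritic cells and macrophages, had 1.77, 3.32 and 21.1 CPM against 0, 0 and 0.289 CPM. The size of the difference varied widely among the 10, from a log2 fold change of -0.49 for Wdr82 to -6.07 for Dnase1l3. The value for Dnase1l3 was -4.28 without 0%-Axitinib replicate 3. With 0 CPM in 3%-Axitinib replicates 1 and 2, it depends on the prior count of the fit.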

How the data were processed

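Libraries of 6 samples of subcutaneous tissue were read from 1 table of counts, which the authors deposited as unnormalized reads per gene after mapping to mm10 (GRCm38) with STAR 2.5.2b, as the submitters' processing notes name it. The annotation and the strand setting are not given in the sources used here. Of its lines, 48440 are genes and 4 hold reads given to no gene (in each library unmapped, multimapping, outside genes or on overlapping genes), which stayed out of library sizes and tests. Multimapping reads were 2.71% to 6.65%, reads outside genes 3.17% to 6.14% and reads on overlapping genes 3.55% to 5.74% of a library.

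The members and lists were chosen with earlier results of these data known. The analysis used edgeR 4.0.16 under R 4.3.3: filterByExpr (minimum count 10, minimum total 15), TMM, glmQLFit and glmQLFTest without covariates, and Benjamini-Hochberg adjustment over all genes tested. The fit was tested on simulated data. Replicates of a group differed by far more than sampling noise. Alternatives were DESeq2 1.42.0 (size factors, Wald test), total counts, no filter, the replicate block and each sample left out. Positions, exon lengths and overlaps came from GENCODE M21 (GRCm38), and promoters from RefSeq. Log2 CPM used a prior count of 2. Named were all members and, with a few left out, pathway genes past the criterion, the most abundant gene of each list, the marker with the largest change in a list, defining markers, and the 10 genes most like the members. Plots used Python 3.11.15 and matplotlib 3.10.9.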

Additional observations from a re-analysis of the deposited data

How the results depend on the processing

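All 98 log2 fold changes of single class II genes under the alternatives kept their negative sign, and 91 kept their side of the criterion; H2-DMa came to meet it in 5 and H2-DMb2 no longer met it in 2. DESeq2's Wald test gave H2-Ob no p. The criterion was met by 8 to 10 class II genes in each setting, counting H2-Ob and H2-Oa where called, although these 2 give no support. Lower genes in all then numbered from 1308 of 15878 tested, without 3%-Axitinib replicate 1, to 2533 of 26823, without a filter. Scaled to total counts they were 2448 of 15257. Without 3%-Axitinib replicate 1 or 2, H2-DMa and H2-DMb2 did not meet the criterion, so the 8 genes there include H2-Ob and H2-Oa. With genes that passed the filter through 1 group alone set aside, 7 of 8 met it with all 6 samples and without 0%-Axitinib replicate 3. The median over the 9 genes other than H2-Oa lay between -3.35 and -2.07, the latter without 0%-Axitinib replicate 3. At an adjusted p of at most 0.05 (Benjamini-Hochberg), edgeR's quasi-likelihood test called 0 class II genes and 0 lower genes in all; DESeq2's Wald test called 7 and 1055, and edgeR without a filter called 9 lower genes. With each sample left out in turn, these edgeR calls ranged from 0 to 7 class II genes and from 0 to 611 lower genes, both highest without 0%-Axitinib replicate 3; the cause was not tested. Without that library 2274 genes were higher by the criterion, against 1456. Scaling to total counts moved the median log2 fold change of all genes from -0.03 to -0.16. With the replicate number as a block, 8 class II genes met the criterion (median -2.84) and 1354 lower genes did, against 1785. Deviations of samples with the same number correlated at 0.173, -0.118 and -0.187, and the labels do not say that a number pairs samples. Depth limits H2-Oa and H2-Ob, whose 3%-Axitinib samples held 0 to 3 reads.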
